A study of Mus musculus with 6 samples.

Results

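A full seed match is a run of bases in a target RNA that pairs without a gap or mismatch with nucleotides (nt) 2 to 8 of a microRNA (miRNA). The data are miRNA-target hybrids, single RNA molecules in which a miRNA captured with the AGO2 protein was ligated to the target fragment beside it, read by sequencing in P19 cells, a mouse embryonal carcinoma line. For each of the 141 miRNAs with 5 or more hybrid reads, the most common first 8 nt of its reads gave the seed, and the target fragments that held the reverse complement of nt 2 to 8 were taken. This gave 5906 fragments with 6193 reads, out of 14874 fragments and 15392 reads of these miRNAs and 15159 fragments and 15680 reads in the whole table. The members were thus chosen by their sequence and by read counts pooled over all libraries, so the match itself is a definition and not a result. At the edge of the rule, the 14 miRNAs with exactly 5 reads gave 33 full seed reads of 70, and the 16 miRNAs with exactly 4 reads, which were left out, would have given 19 of 64.

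WT cells were labelled Dicer (+/+) and HM cells Dicer (HM/-), and both were the same P19 line put through the same AGO2 capture without any drug. In HM cells one Dicer1 allele carried the hotspot change that inactivates RNase IIIb and the other a truncating frameshift, and the cells came from a single clone in which a miRNA cluster on chromosome 12 had been silenced. There were 3 libraries of each genotype, labelled as biological replicates, with 1621 to 2331 hybrid reads per WT library, of which 593 to 963 had a full seed match, and 1661 to 5341 per HM library, of which 655 to 2090 had one. Among all hybrids, the 3p strands of miR-302a, b, c, d and miR-367, which mark embryonal carcinoma and embryonic stem cells, held 43.0% of reads (26.1% to 53.8% over libraries), and miR-290 to miR-295 held 6.71%. Markers of other tissues (miR-122-5p, miR-1a-3p, miR-133a-3p, miR-124-3p and miR-142a) had 0 of 15680 reads, which allows up to 0.0191% each.

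In the Argonaute protein the seed of a miRNA is held in a shape ready to pair, and targets of animal miRNAs are mostly recognised through it, with the rest of the miRNA pairing only in part. The first nucleotide is buried in a pocket of the protein and does not pair, while a separate pocket favours an adenine in the target across from it. Dicer cuts the 5p strand and the 3p strand of each miRNA from a hairpin, and the RNase IIIb domain makes the cut that frees the 5p strand. Of the 2 strands, the one that is usually loaded is called the guide and the other the passenger.

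Some miRNAs of the 5 leading seeds are shown with nt 2 to 8 in capitals, from RefSeq (GRCm38.p6), to show that a few seeds carried most of the members. The first 3 share 1 seed, and miR-20b-5p and miR-93-5p share another. Of the 10 miRNAs with most full seed reads, miR-302a-3p (245 reads) and miR-302d-3p (202) share the seed of miR-302b-3p and miR-301a-3p (205) that of miR-130a-3p, and they are not printed.
miR-367-3p: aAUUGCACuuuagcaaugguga
miR-92a-3p: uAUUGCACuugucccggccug
miR-25-3p: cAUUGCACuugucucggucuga
miR-302b-3p: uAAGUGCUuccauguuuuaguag
miR-20b-5p: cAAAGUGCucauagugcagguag
miR-93-5p: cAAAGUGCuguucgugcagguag
miR-130a-3p: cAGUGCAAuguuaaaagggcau
miR-19b-3p: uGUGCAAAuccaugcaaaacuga
The gene of miR-367-3p lies on the plus strand, with the mature strand at chr3:127545779-127545800, and miR-302b-3p lies upstream of it in the same cluster at chr3:127545275-127545297.

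The most frequent deposited fragment of at most 30 nt is shown next for the genes with most full seed reads, as 1 example each. The bases facing nt 2 to 8 are in capitals. Ties were settled by the number of libraries and then by alphabet. Their coordinates were not used here, since the build of the target mapping is not given in the sources used here.
Rabggtb: agatgctgtagtGTGCAATatga
Atp7a: acactgacacAGCACTTacgttgatgtag
Kmt2a: atagggagaAGCACTTatgacgaggc
Lifr: cggttatgatGTGCAATacct
Fjx1: cagtttcatGCACTTTacttt
Ddx3x: atttcctaaaGTGCAATagat
Tacc2: tggacttggccgttgcGTGCAATacgagcg
Srpr: gatgtgctactaGTGCAATaaggt
Epha4: ctcatccatGCACTTTaatt
In the fragments of Rabggtb, Lifr, Ddx3x and Epha4 4 bases followed the match, and in those of Fjx1 and Srpr 5. In the fragment of Tacc2 7 bases followed it, in that of Kmt2a 10 and in that of Atp7a 12, and the last pair were each read once. The Atp7a fragment, joined to miR-302b-3p, is not from its main site. That site, with the match of the miR-92a-3p seed, held 139 of the 153 full seed reads of the gene. A fragment of it is printed further below. The base after the match, which faces nt 1 of the miRNA, was an adenine in every one of them.

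In most reads the match sat near the 3′ end of the fragment. Over all 6193 reads, 29.7% ended exactly 4 bases after the match, 17.8% ended 5 bases after it, and 61.6% ended 3 to 6 bases after it (56.6% to 69.7% over the 6 libraries). Ends closer than 3 bases made up 0.630% of the reads. On the 5′ side, where the fragment was joined to the miRNA, the most common distance was 9 bases (19.99% of reads), and 55.2% of reads had 8 to 11 bases there. Among 20-nt fragments, the shortest kept in the table, 98.1% ended 3 to 6 bases after the match, as the length leaves little room for anything else. The share was 92.9% at 21 to 22 nt, 76.8% at 23 to 25 nt, 42.1% at 26 to 30 nt and 6.05% above 40 nt. The median distance 3′ of the match rose from 4 bases at 20 nt to 22 bases above 40 nt, and the median 5′ distance from 9 to 19 bases.

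**Figure D1:**
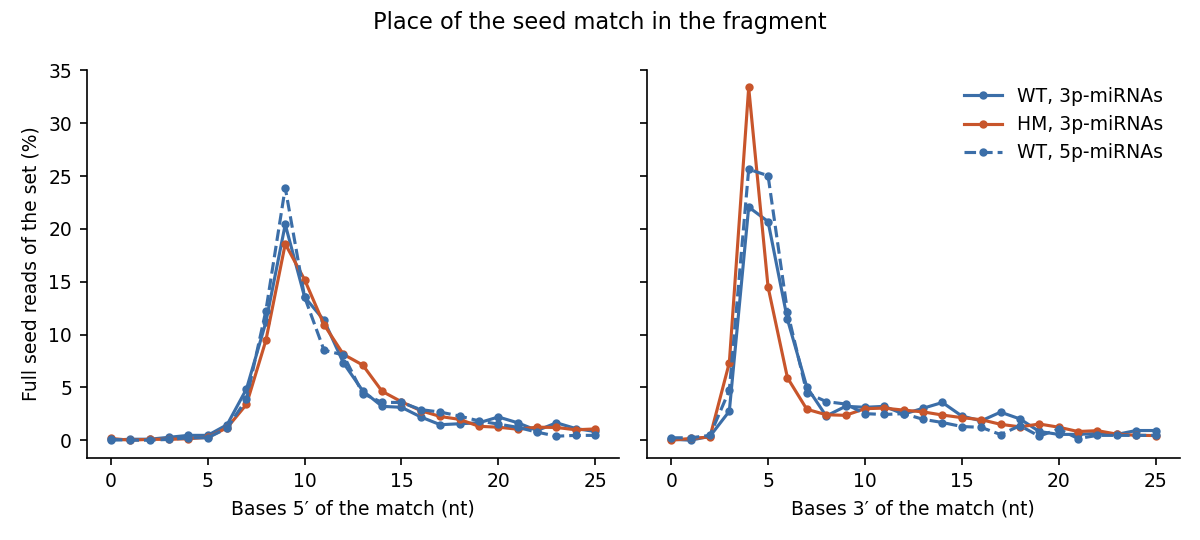
Bases on the 5′ side (left) and 3′ side (right) of the seed match in the fragment, as a percentage of the full seed reads of each set, for 3p-miRNAs in WT and HM and for 5p-miRNAs in WT (reads of 3 libraries pooled). The 3′ profile peaks at 4 bases in HM 3p-miRNAs (33.4%) and is spread over 4 and 5 bases in both WT sets.

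The exact end of the fragment differed between the genotypes. The share of full seed reads that ended 4 bases after the match was 22.9%, 27.4% and 20.2% in the WT libraries and 33.9%, 32.5% and 34.6% in the HM libraries. All HM libraries lay above all WT libraries, by 10.1 percentage points on average, which is the smallest p that 3 libraries against 3 allow (two-sided exact permutation test, p = 0.1; 0.25 after Benjamini-Hochberg adjustment over 35 comparisons of site position). Ends 5 bases after the match were the other way round, with 20.8%, 25.1% and 22.8% in WT and 15.3%, 14.3% and 14.2% in HM.

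The same shift was present when single seeds were taken alone. For the miR-367/25/92 seed, ends at 4 bases made up 23.4% ± 5.07 in WT and 39.3% ± 0.629 in HM (mean ± SD, n = 3 libraries each), and for the miR-302/miR-294 seed 13.3% ± 4.91 and 22.2% ± 2.79. The miR-130/miR-301 and miR-19 seeds also had no overlap between genotypes, with HM means of 36.8% and 34.7% and WT means of 28.7% and 24.3%. Over the remaining seeds outside the miR-17 seed, 27.5% ± 2.74 in WT and 33.6% ± 3.46 in HM overlapped. Within fragments of 21 to 22 nt, 29.8% ± 4.62 of WT reads and 48.7% ± 2.23 of HM reads ended 4 bases after the match, and at 23 to 25 nt 21.7% ± 3.71 and 42.0% ± 2.39. The difference was smaller in the other lengths, with 50.6% ± 3.79 and 60.6% ± 1.68 at 20 nt and 6.26% ± 1.06 and 9.50% ± 1.58 at 31 to 66 nt, both without overlap, and at 26 to 30 nt the libraries overlapped (16.5% ± 4.58 and 20.4% ± 4.08). The part of the RNase digestion and of the library preparation in this difference was not tested. The range of 3 to 6 bases as a whole held 62.3% ± 6.70 in WT and 62.0% ± 3.00 in HM (p = 1, exact permutation test).

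On the 5′ side the genotypes were closer. For 3p-miRNAs the median number of bases 5′ of the match was 11, 10 and 10 in the WT libraries and 11 in each HM library (p = 0.4, two-sided exact permutation test, n = 3 per genotype), and 8 to 11 bases stood there in 56.6% ± 2.69 of reads in WT and 54.8% ± 1.68 in HM, with overlap. Over both arms that share was 57.3% ± 1.29 in WT and 54.4% ± 1.64 in HM, without overlap (p = 0.1, exact permutation test). For 5p-miRNAs the median was 10 in each WT library and 12, 13 and 10 in the HM libraries (p = 0.4, exact permutation test), and 8 to 11 bases stood 5′ of the match in 57.9% ± 2.18 of reads in WT and 41.2% ± 6.48 in HM, where only 98 reads in all had a full match.

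The base facing nt 1 was mostly an adenine. Of 6179 reads with a base there, 59.96% had an adenine, 18.97% a uracil, 12.01% a guanine and 9.06% a cytosine, while the rest of the same fragments outside the match held 25.0% adenine. The adenine share exceeded that of the rest of the fragment by 34.6 ± 1.12 percentage points (mean ± SD over 6 libraries), with the difference positive in 6 of 6 libraries (two-sided exact sign-flip permutation test, p = 0.03125, the smallest that 6 libraries can give; 0.03125 after adjustment over 9 within-library comparisons). When each miRNA-gene pair was counted once in a library, the adenine share was 51.8% ± 2.03. The authors had kept only pairs predicted by the target prediction tool TargetScan, and the part of that filter in the adenine excess was not tested.

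The adenine was also common where it could not pair with nt 1. For miRNAs that begin with a uracil, 50.2% ± 3.96 of reads had an adenine there (n = 6 libraries), and for miRNAs that begin with another base, with which adenine cannot pair, 66.5% ± 4.75. The latter were higher in 6 of 6 libraries, by 16.3 ± 8.64 percentage points (exact sign-flip permutation test, p = 0.03125), by 7.81 to 9.02 in WT and by 22.1 to 26.8 in HM. Among miRNAs without a 5′ uracil, the base that would pair with nt 1 was rarer than adenine by 58.4 percentage points on average. The difference between the starts was 6.49 points and no longer past the threshold when the 5 leading seeds were left out (p = 0.125, exact permutation test).

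Seeds differed in the base facing nt 1. The miR-367/25/92 seed had an adenine in 79.4% of its reads and in 59.95% of its 407 miRNA-gene pairs, and the miR-19 seed in 65.9% of reads. The miR-302/miR-294 seed had it in 35.6% of 1160 reads and 31.5% of 607 pairs. By arm and genotype, 61.2%, 65.9% and 62.4% of 3p full seed reads in the WT libraries and 59.3%, 60.9% and 61.4% in the HM libraries faced nt 1 with an adenine (p = 0.2, two-sided exact permutation test). For 5p-miRNAs the values were 56.6%, 54.5% and 56.3% in WT and 45.0%, 56.5% and 57.1% in HM (p = 0.9, exact permutation test), and the groups overlapped.

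A uracil was common at the other end of the match. The base just 5′ of the match, which faces nt 9, was a uracil in 61.3% ± 3.36 of full seed reads (n = 6 libraries), against 30.7% ± 1.36 in the rest of the fragment outside the match. The excess of 30.7 ± 2.64 percentage points was positive in 6 of 6 libraries (exact sign-flip permutation test, p = 0.03125). With each pair counted once, the uracil share was 55.9% ± 4.14. It was not the base that pairs with nt 9, which stood there in 18.6% ± 1.15 of reads. The miR-367/25/92 and miR-17 seeds had the uracil in 79.6% and 75.2% of reads, the miR-30-5p and miR-26 seeds in 33.0% and 17.2%. The same letters as the miR-367/25/92 match were also preceded by a uracil in 69.1% of the 55 reads in which they lay in a fragment joined to a miRNA of another seed and without its own match.

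**Figure D2:**
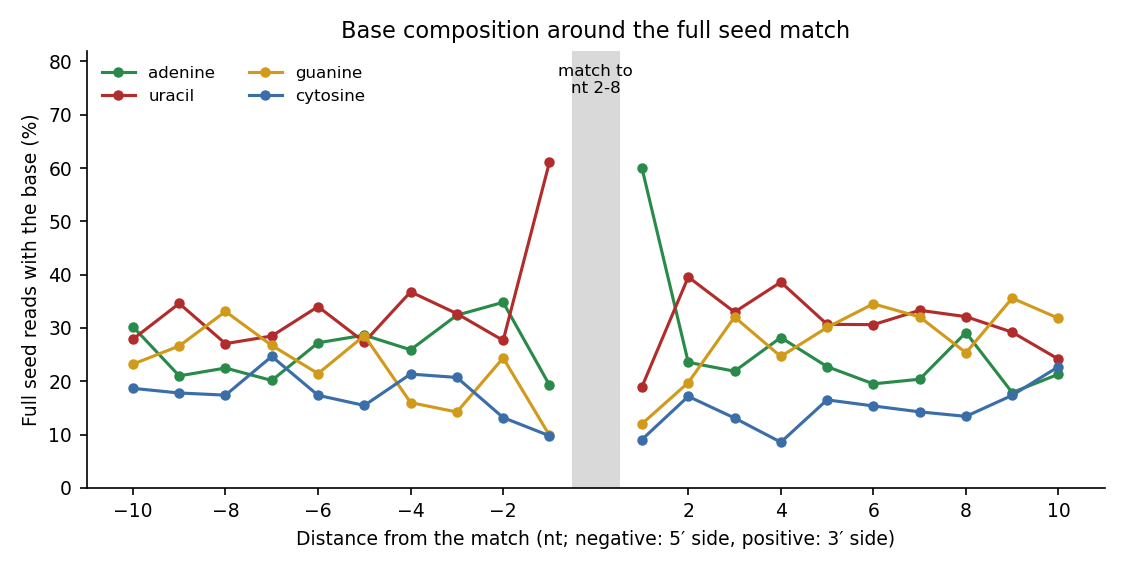
Share of full seed reads with each base at distances of 1 to 10 nt on the 5′ side (negative) and 3′ side (positive) of the match, over all libraries; the grey band is the match and lines join positions on 1 side. Uracil stands out next to the match on the 5′ side (61.1%) and adenine on the 3′ side (59.96%), while cytosine is at 9.77% and 9.06% there.

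The flanks, counted with the base just 5′ of the match, were slightly richer in A and U than other fragments. That base was A or U in 80.4% of all reads, and its part in this excess was not tested. At 2 to 10 nt from the match on that side, A and U ran from 48.6% to 65.1%. Over up to 10 nt on each side, leaving out only the base facing nt 1, A and U made up 59.2% on average over libraries. The fragments of the same libraries without a full match held 57.9%. The difference was 2.07 ± 0.604 percentage points in WT and 0.573 ± 0.216 in HM (p = 0.1 between genotypes, exact permutation test), positive in 6 of 6 libraries (mean 1.32, exact sign-flip permutation test, p = 0.03125). It no longer passed the threshold without the reads of Rabggtb and Atp7a (0.997 points, p = 0.125, exact permutation test). The 5′ flank held 60.5% A and U and the 3′ flank 57.1%, with the 5′ side higher in 6 of 6 libraries by 3.44 ± 0.927 points (exact sign-flip permutation test, p = 0.03125). These windows were not alike. The 5′ one held the base next to the match (80.4% A and U), and the 3′ one left it out (78.9%). The difference thus does not compare like stretches, and the part of these bases in it was not tested. For 3p-miRNAs alone the flanks held 57.9%, 59.5% and 59.8% in WT and 58.0%, 58.1% and 57.6% in HM (p = 0.3, exact permutation test), and the groups overlapped.

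Pairing of the miRNA beyond its seed was measured as a run of bases complementary to nt 13 to 16 anywhere 5′ of the match. It was present in 8.02% of full seed reads on average over libraries, against 3.79% for the same bases of miRNAs with other seeds searched in the same fragments. The difference was 6.80, 4.58 and 3.29 percentage points in the WT libraries and 2.92, 4.28 and 3.48 in the HM libraries, positive in all 6 (mean 4.23 ± 1.41, exact sign-flip permutation test, p = 0.03125). Of the 505 reads with such a run, 126 (25.0%) were miR-92a-3p joined to Atp7a, the gene of a copper transporter, where 98.4% of the 128 full seed reads of the pair had it. Without Rabggtb and Atp7a the mean difference was 2.47 points, still past the threshold (exact permutation test, p = 0.03125). The pair is shown with both runs in capitals, the first facing nt 13 to 16 and the second facing nt 2 to 8.
Atp7a with miR-92a-3p: aggagCGGGcaactctGTGCAATattt
The same run was found in 40.2% of miR-92a-3p and 33.7% of miR-363-3p full seed reads, and in 1.35% of those of miR-367-3p and 0% of the 200 of miR-25-3p, although these miRNAs share a seed. Most of both high shares lay in 1 gene each. Atp7a gave 126 of the 132 reads of miR-92a-3p with the run and Rabggtb 27 of the 32 of miR-363-3p. In the other genes 6 of 200 miR-92a-3p reads (3%) and 5 of 64 miR-363-3p reads (7.81%) had it. When bases were placed opposite each nucleotide with no gap, the complement of nt 12 exceeded that of other seeds by 6.83 ± 3.805 points and that of nt 9 fell short by 7.92 ± 1.16 (6 of 6 libraries each, exact sign-flip permutation test, p = 0.03125; 0.0781 after adjustment over 10 positions). The complement of nt 11 was higher by 2.50 ± 1.03 points and that of nt 14 lower by 1.20 ± 1.21, with the same direction in 6 of 6 libraries and the same p by the exact sign-flip permutation test. The Rabggtb fragment printed above, joined to miR-367-3p, held the complements of nt 11 and nt 12. This pair had 341 full seed reads, and the single positions were not tested without it.

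Full seed fragments were longer than the other fragments of the same miRNAs. Their mean length was 27.1 nt, against 25.7 nt for the others, a difference of 1.42 ± 0.893 nt that was positive in 6 of 6 libraries (exact sign-flip permutation test, p = 0.03125). It was 0.0641 nt without the 5 leading seeds (p = 0.969, exact permutation test). Fragments of 20 nt held a full match in 36.7% of reads, those of 26 to 30 nt in 41.4%, those of 31 to 40 nt in 47.5% and those above 40 nt in 55.8%. A longer fragment has more places for any run of letters, and that part was not tested.

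Of all reads of the eligible miRNAs, 24.2% had the full match followed by an adenine and 16.1% the full match followed by another base or by none. A further 12.95% matched nt 2 to 7 with an adenine facing nt 1, 5.73% nt 2 to 7 without one and 2.94% nt 3 to 8, and 38.1% had no seed match of 6 nt. As a background, a read joined to a miRNA of another seed held a given match in 0.378% of reads on average over the 107 seeds, against 40.2% for its own. The authors had kept only miRNA-gene pairs predicted by TargetScan, which are predicted from seed sites in the 3′ UTR, so both the 40.2% and this contrast rest in part on that filter. Its part in the split of the matches by adenine was not tested. For seeds that overlap in sequence the background was higher. The match of the miR-17 seed lay in 6.17% of reads of other seeds and that of the miR-130/miR-301 seed in 4.26%, against 0.496% for the miR-367/25/92 seed and 0.158% for miR-30a-3p.

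The share of reads with a full match overlapped between WT and HM. It was 45.8%, 42.5% and 37.6% in the WT libraries and 40.01%, 39.7% and 37.4% in the HM libraries (difference -2.96 percentage points, two-sided exact permutation test, p = 0.3). For 3p-miRNAs it was 44.0%, 39.8% and 38.4% in WT and 40.3%, 40.2% and 37.6% in HM (difference -1.33, p = 0.6, exact permutation test), and the difference was 0.314 without WT library 1. With 3 libraries against 3, no exact permutation test between genotypes can go below p = 0.1.

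For 5p-miRNAs the share was 47.4%, 44.9% and 37.1% in WT and 30.9%, 24.6% and 28.6% in HM, with no overlap (difference -15.1 points, p = 0.1, two-sided exact permutation test; 0.5 after adjustment over 15 comparisons). This difference came with a change in which miRNAs were left. miR-466i-5p, with a full match in 7.42% of its 229 reads, made up 1.85% of 5p hybrid reads in WT and 47.5% in HM. Without it the 5p share was 43.7% ± 4.91 in WT and 47.5% ± 4.78 in HM, and the difference changed sign to 3.81 points (p = 0.5, exact permutation test). The other 5p-miRNAs had only 191 reads in HM, against 2969 in WT.

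**Figure D3:**
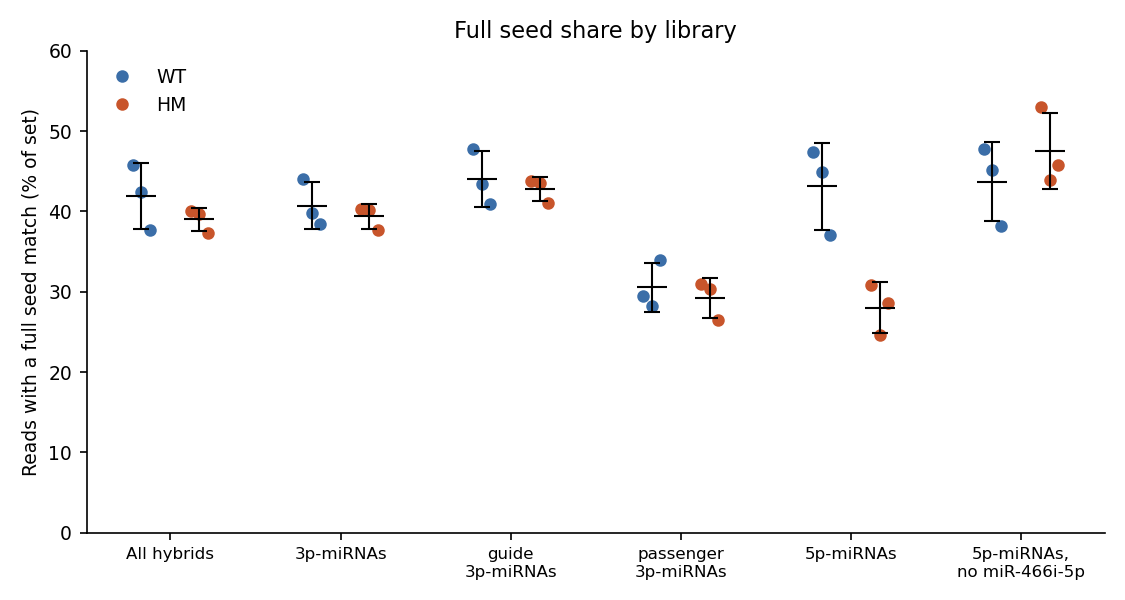
Percentage of hybrid reads with a full seed match in each library (points) for all hybrids, 3p-miRNAs, guide and passenger 3p-miRNAs, 5p-miRNAs and 5p-miRNAs without miR-466i-5p; bars are mean ± SD of 3 libraries. WT and HM overlap in every set but 5p-miRNAs, where they overlap once miR-466i-5p is left out.

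Passenger 3p-miRNAs held a full match less often than guide 3p-miRNAs. The share of guide 3p-miRNAs (30 miRNAs) was 44.0% ± 3.52 in WT and 42.8% ± 1.52 in HM, and that of passenger 3p-miRNAs (29 miRNAs) 30.5% ± 3.01 and 29.2% ± 2.45 (n = 3 libraries each). Within a library the passenger share was lower by 18.3, 15.2 and 6.95 percentage points in WT and by 12.8, 13.2 and 14.6 in HM, lower in 6 of 6 libraries (mean difference -13.5 ± 3.76, exact sign-flip permutation test, p = 0.03125), and the difference itself did not change with genotype beyond the spread (p = 1, exact permutation test). Only 61, 71 and 56 passenger reads stood behind the WT values. Without the 5 leading seeds it was -5.69 points (p = 0.188, exact sign-flip permutation test).

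Over the 40 miRNAs with 50 or more reads, the share ran from 4.55% to 75.5%, with a median of 41.1%. The 5 highest were miR-25-3p (75.5%, 95% Wilson interval 70.0% to 80.3%), miR-130a-3p (70.4%, 65.5% to 74.8%), miR-363-3p (66.9%, 58.8% to 74.1%), miR-301a-3p (66.8%, 61.3% to 71.8%) and miR-30e-5p (33 of 50 reads, 52.2% to 77.6%). The 5 lowest were miR-99b-3p with 3 of 66 reads (4.55%, 1.56% to 12.5%), miR-466i-5p (7.42%, 4.69% to 11.6%), miR-20b-3p (12.1%, 8.12% to 17.6%), miR-17-3p (13.7%, 9.98% to 18.5%) and miR-290a-5p (14.1%, 8.06% to 23.5%). The intervals cover counting error only. Pooled over the libraries, miRNAs of the same seed were not alike throughout. In the miR-367/25/92 group miR-25-3p had 75.5% and miR-367-3p 55.3%, with intervals that do not meet (53.2% to 57.3% for miR-367-3p). In the miR-302/miR-294 group miR-295-3p had 45.6% (35.7% to 55.8%) and miR-302b-3p 24.6% (22.99% to 26.4%). The order did not hold in every library. In WT library 3 miR-25-3p had 53.8% and miR-367-3p 54.8%, and miR-295-3p had 16.7% and miR-302b-3p 23.02%.

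**Figure D4:**
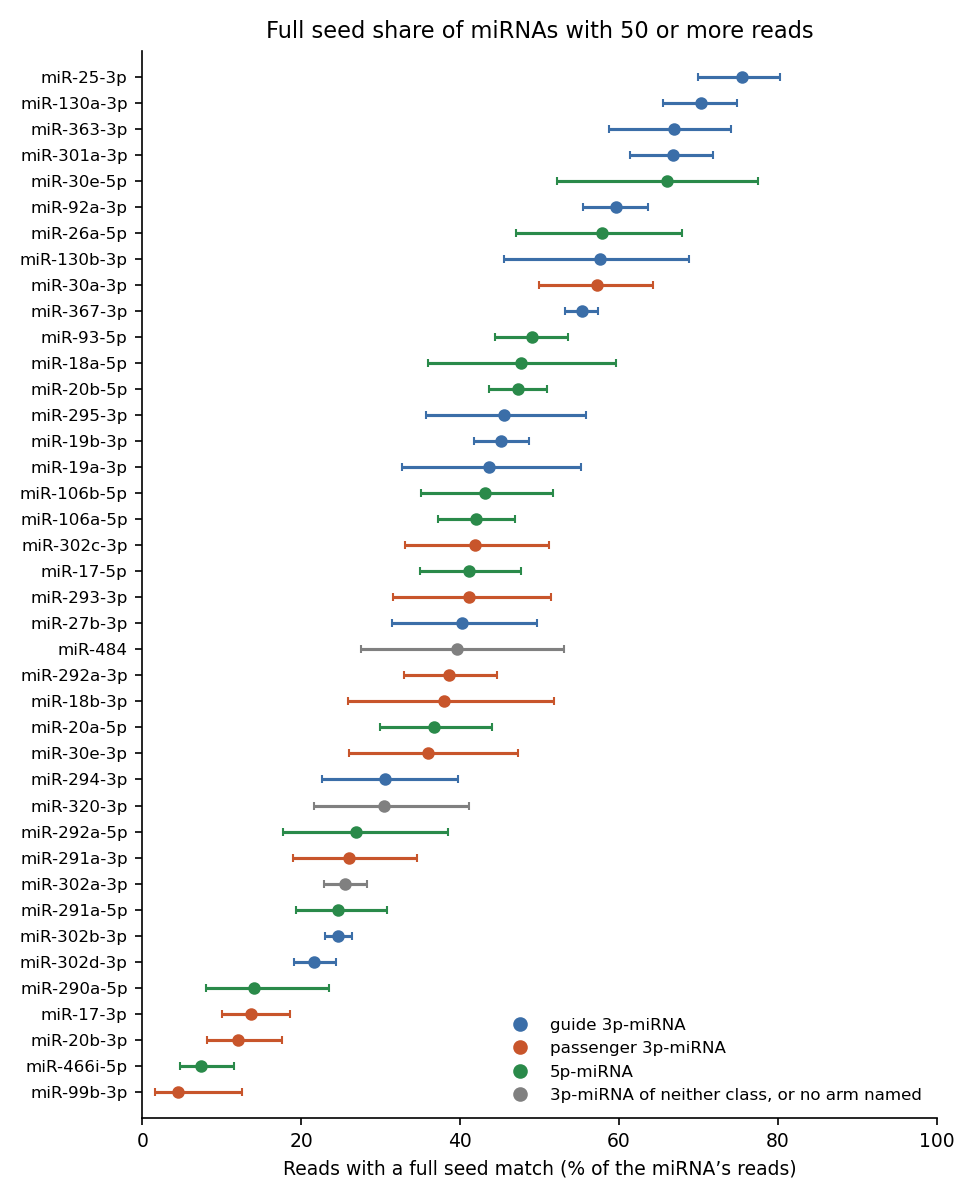
Percentage of a miRNA's hybrid reads that held its full seed match, pooled over the 6 libraries, with 95% Wilson intervals (counting error only), for the 40 miRNAs with 50 or more reads, coloured by class. Guide 3p-miRNAs of the miR-25 and miR-130 seeds stand at the top, and miR-99b-3p and miR-466i-5p at the bottom.

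The share of single miRNAs was compared between genotypes for the 21 with 20 or more reads in each. It was higher in HM for 11 and lower for 10, and the libraries did not overlap for 2. miR-19b-3p had 58.3%, 53.3% and 47.1% in WT and 43.0%, 44.2% and 41.7% in HM, and miR-92b-3p 25.0%, 45.5% and 25.0% in WT and 50%, 57.1% and 50% in HM, the latter from 23 and 22 reads (p = 0.1 each, exact permutation test; 0.919 after adjustment over the 21). miR-302b-3p, with 24.6%, 24.5% and 23.02% in WT and 26.7%, 24.2% and 24.7% in HM, overlapped.

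The seeds behind the members were different in WT and HM. The 5 leading seeds held 79.6% of all full seed reads and the 10 leading miRNAs 65.0%. The miR-17 seed (miR-17-5p, miR-20a-5p, miR-20b-5p, miR-93-5p, miR-106a-5p and miR-106b-5p, which promote growth in many cell types) held 35.4%, 35.9% and 34.9% of the full seed reads of the WT libraries and 2.44%, 1.77% and 1.94% of those of HM. The miR-367/25/92 seed held 19.8%, 20.6% and 18.7% in WT and 35.1%, 38.0% and 40.5% in HM, and the miR-302/miR-294 seed 11.9%, 10.8% and 10.8% in WT and 25.5%, 23.1% and 23.3% in HM. None of the 3 overlapped between genotypes (p = 0.1 each, the smallest possible, exact permutation test; 0.15 after adjustment over 12 comparisons). These are parts of a whole, so the loss of 1 seed raises the parts of the others.

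The share of each seed's own reads that held the full match overlapped for 4 of the 5 leading seeds. For the miR-17 seed it was 44.5% ± 6.68 in WT and 46.1% ± 5.84 in HM, although the HM value rests on 73 full seed reads. For the miR-367/25/92 seed it was 57.8% ± 1.43 and 58.2% ± 1.23, for the miR-302/miR-294 seed 24.0% ± 3.34 and 25.1% ± 1.39, and for the miR-130/miR-301 seed 68.9% ± 3.92 and 65.2% ± 5.09. The miR-19 seed had 53.0% ± 4.53 in WT and 43.0% ± 1.16 in HM, without overlap (p = 0.1, exact permutation test). The pooled reads of the seeds outside the 5 had 41.4%, 39.6% and 34.5% in WT and 33.6%, 31.4% and 29.9% in HM, also without overlap (p = 0.1, exact permutation test).

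**Figure D5:**
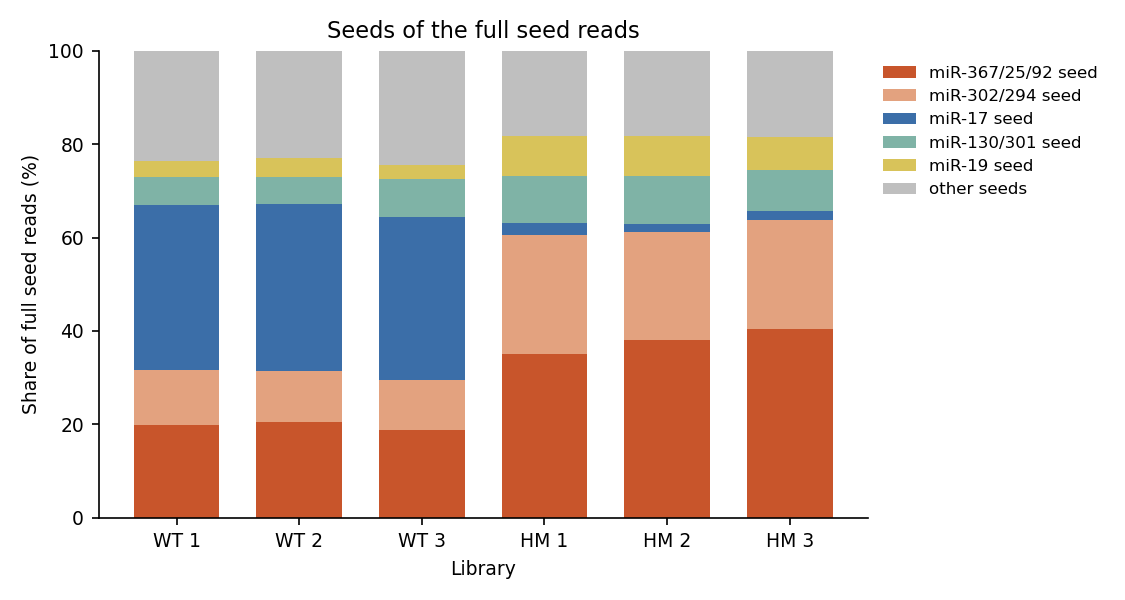
Share of full seed reads of each library that belonged to the 5 leading seeds and to all others (stacked to 100%). The miR-17 seed takes 34.9% to 35.9% in the WT libraries and 1.77% to 2.44% in the HM libraries.

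Full seed reads of single miRNAs were tested per 3p hybrid, with 1 row for the full seed reads and 1 for the other reads of each miRNA and 10 or more reads in a row. Of 60 full seed rows that passed this minimum, 5 were higher and 25 lower in HM (edgeR's quasi-likelihood test, Benjamini-Hochberg adjusted p under 0.05 over all 129 rows). Over all 129 rows 52.7% were called (14% higher and 38.8% lower), against 8.33% higher and 41.7% lower among the full seed rows. The libraries of WT and HM did not overlap in 61.7% of the full seed rows and 60.5% of all rows. When all hybrids were taken as the library size in place of 3p hybrids, 18 full seed rows were higher and 22 lower. Of the rows called lower on the 3p scale, 22 were 5p-miRNAs out of 23 tested, and 3 were guide 3p-miRNAs. Most of these 5p rows had no more than 1 read in HM. They passed the minimum of 10 reads through the WT libraries, so a rise could hardly have been called for them. Of the 35 tested 3p rows, 27 were not called.

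miR-93-5p, of the miR-17 seed, had 76.4, 84.3 and 84.2 full seed reads per 1000 3p hybrids in WT and 0 in each HM library. It was at least 68.0-fold lower in HM, with 3 reads per library as the limit for the zeros (edgeR adjusted p = 6.8e-69). miR-20b-5p, which shares its seed, had 96.1, 104 and 104 in WT and 6.94, 6.06 and 5.24 in HM (log2 fold change -4.07 ± 0.22, SE; edgeR adjusted p = 2.4e-59). It thus kept full seed reads in every HM library. miR-106b-5p, miR-291a-5p and miR-26a-5p, with 57, 53 and 48 full seed reads in WT, had none in HM, which makes them at least 17.7-fold, 15.5-fold and 15.9-fold lower. miR-17-5p had 92 reads in WT and 1 in HM, a ratio of 0.00314 with an exact counting interval of 7.9e-05 to 0.0179.

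Among 3p-miRNAs, the rows that rose were mostly passengers. miR-30a-3p had 0, 0 and 2.85 full seed reads per 1000 in WT and 10.1, 11.3 and 10.1 in HM (edgeR adjusted p = 2.4e-06), higher in every HM library. From 2 reads in WT and 101 in HM the ratio was 14.6, with an exact counting interval of 3.94 to 122. miR-293-3p, of the miR-290 cluster of early embryonic cells, had none in WT and 3.15, 4.50 and 3.37 in HM (edgeR adjusted p = 0.000498), at least 1.07-fold higher given the depth of WT. miR-17-3p, the partner strand of miR-17-5p, had 0, 0 and 1.43 in WT and 3.15, 4.11 and 2.62 in HM (ratio 9.54, exact counting interval 1.60 to 388; edgeR adjusted p = 0.0103). miR-497a-3p had none in WT and 1.89, 1.17 and 0.375 in HM, which gives no bound on the fold (edgeR adjusted p = 0.0496). Of the 10 passenger 3p rows tested, 4 rose and none fell, against 14% higher and 38.8% lower over all 129 rows. The minimum of 10 reads pooled both genotypes, and the 4 that rose had 0 to 2 reads in WT. They passed it through the HM libraries, and a fall from so few reads could hardly have been called. The call of miR-497a-3p was lost without each of the WT libraries (edgeR adjusted p = 0.163 to 0.206), and without an HM library the row was not tested, while that of miR-17-3p was lost without WT library 1 (edgeR adjusted p = 0.0854) and without WT library 2 (0.0986).

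Among the 3p-miRNAs that led the members, 1 rose and 2 fell on this scale. All of them were guides but miR-302a-3p, which was in neither class. miR-367-3p had 118, 115 and 98.4 full seed reads per 1000 in WT and 92.7, 102 and 107 in HM (log2 fold change -0.14 ± 0.12, SE; edgeR adjusted p = 0.352), and the groups overlapped. miR-302b-3p had 34.9, 43.1 and 45.6 in WT and 60.6, 50.1 and 54.3 in HM (log2 fold change 0.40 ± 0.18; edgeR adjusted p = 0.0499), higher in every HM library, but the call was lost when any 1 library was left out. miR-130a-3p had 27.3, 31.2 and 45.6 in WT and 23.3, 19.2 and 12.4 in HM (log2 fold change -0.92 ± 0.25; edgeR adjusted p = 0.000662), and miR-92a-3p 40.4, 33.0 and 31.4 in WT and 20.8, 27.4 and 22.5 in HM (log2 fold change -0.53 ± 0.23; edgeR adjusted p = 0.0398), both lower in every HM library, and the call of miR-92a-3p was lost in 4 of the 6 fits that each left out 1 library. Per all hybrids the direction was the opposite for miR-367-3p, miR-92a-3p, miR-130a-3p, miR-302a-3p and miR-302d-3p. miR-19b-3p, miR-301a-3p, miR-302a-3p and miR-302d-3p did not pass the threshold, with log2 fold changes of 0.13, 0.37, -0.54 and -0.42.

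The seed rule was checked against RefSeq, since it takes the start of a miRNA from the reads. For 117 miRNAs the most common first 8 nt were those of the RefSeq mature sequence, for 13 they differed and 11 names were not in the table. Only miR-30a-3p among the 13 had more than 24 reads. Its hybrids began 1 base later than the RefSeq sequence, as shown with nt 2 to 8 in capitals, first RefSeq and then the most common start in the hybrids.
RefSeq miR-30a-3p: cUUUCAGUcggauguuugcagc
Hybrid miR-30a-3p: tTTCAGTCggatgtttgc
The choice hardly changed its members. Of 180 reads, 103 held the match of the read start and 104 that of the RefSeq start. Across all miRNAs, 92.9% of full seed reads and 86.0% of the other reads began with the 8 nt used for the seed.

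The members came from 1655 genes and 2985 miRNA-gene pairs. Of these genes, 845 had a single full seed read and 112 had 10 or more, and the 10 leading genes held 18.4% of the reads. Of the fragments, 97.0% were read once, 106 held the match more than once, and 197 of 5638 distinct hybrid sequences recurred in more than 1 library. When a site was defined by its gene, its match and 3 bases before and 2 after it, 2540 sites were found in the 5865 fragments long enough to place, of which 69.2% had 1 read, 331 were read in both genotypes, 442 by 2 or more miRNAs and 32 in all 6 libraries.

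Of the 112 full seed gene rows with 10 or more reads, 5 were higher and 20 lower in HM per all hybrids (edgeR, adjusted p under 0.05 over 315 rows, of which 17.8% were called). Of the full seed rows 4.46% were higher and 17.9% lower, and of all rows 5.4% and 12.4%. The libraries did not overlap in 30.4% of the full seed rows and 28.9% of all rows. Per 3p hybrid 0 were higher and 27 lower. The count rested on single libraries, with 10 calls without WT library 1, 7 without WT library 2 and 14, of which 0 higher, without HM library 2. The 20 genes whose leading seed was that of miR-17 included 15 of those that fell, and none of them rose. The genes that fell had fewer reads in HM than the minimum and passed it through the WT libraries. The 41 genes led by the miR-367/25/92 seed included 4 that rose and none that fell. These gene sets were formed from the miRNAs of the same reads, so their direction follows in part from the miRNA counts.

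Rabggtb, the gene of a subunit of the enzyme that attaches lipid anchors to Rab proteins, led the members with 379 reads, all at 1 seed. It had 19.2, 13.7 and 8.64 full seed reads per 1000 hybrids in WT and 27.1, 31.3 and 30.03 in HM, higher in every HM library (log2 fold change 1.08 ± 0.33, SE; edgeR adjusted p = 0.00999). The call was lost without WT library 2 (edgeR adjusted p = 0.184), HM library 2 (0.111) and HM library 3 (0.0678), with the replicate block (0.0659) and with no minimum of reads (0.565). Per 3p hybrid the log2 fold change was 0.0330 (edgeR adjusted p = 0.946). Of its reads, 341 were joined to miR-367-3p and 31 to miR-363-3p, and 99.7% of the hybrid reads of the gene held a full match. The fragment printed above for it was read 38 times in 5 libraries.

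Fjx1, the counterpart of the fly gene four-jointed, a Golgi kinase of planar polarity, fell from 16.6, 15.9 and 11.1 in WT to 0.602, 0.374 and 0.715 in HM (log2 fold change -4.72 ± 0.51, SE; edgeR adjusted p = 1.8e-17). Its leading site was read by 6 miRNAs of the miR-17 seed, with 31, 35 and 17 reads in the WT libraries, against 1, 2 and 2 in those of HM. Epha4, an ephrin receptor, had 6.22, 8.58 and 6.17 in WT and 1.20, 0 and 0.715 in HM (log2 fold change -3.95 ± 0.60; edgeR adjusted p = 3.5e-09). Laptm4a, a lysosomal membrane protein, had 33 full seed reads in WT and 1 in HM, a ratio of 0.0182 with an exact counting interval of 0.000447 to 0.109. Capn15, Morf4l2, Fam60a and Epha2 had 16, 12, 11 and 11 reads in WT and none in HM, at least 2.34-fold, 1.90-fold, 1.72-fold and 1.64-fold lower. With few or no reads in HM, all the genes of this paragraph passed the minimum of reads through the WT libraries. A rise could hardly have been called for them.

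In the other direction, Klhl11 had 0, 0.429 and 0.617 full seed reads per 1000 in WT and 1.20, 3.93 and 2.50 in HM (ratio 9.002, exact counting interval 2.28 to 77.7; edgeR adjusted p = 0.0039), and Ube2w, an enzyme of ubiquitin transfer, 0.518, 0.429 and 0.617 in WT and 3.01, 3.56 and 2.15 in HM (ratio 6.002, 1.87 to 30.7; edgeR adjusted p = 0.0099). The most frequent fragment of each, with 6 reads, was joined to miR-367-3p. Runx1t1 and Ptbp2, a transcriptional co-repressor and a splicing regulator of neurons, had 13 and 12 reads in HM and none in WT, too few for a bound (edgeR adjusted p = 0.0244 and 0.0322). With few or no reads in WT, all 4 genes passed the minimum of 10 reads through the HM libraries. These calls did not hold throughout. Those of Runx1t1 and Ptbp2 were lost without each of the WT libraries (edgeR adjusted p = 0.0555 to 0.143 and 0.0585 to 0.159), that of Ube2w without WT library 2 (0.0839) or HM library 2 (0.0889) and that of Klhl11 without HM library 2 (0.0801). Per 3p hybrid none of the 4 was called.

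The other leading genes did not pass the threshold. Atp7a had 10.9, 9.87 and 8.02 in WT and 6.62, 10.9 and 9.65 in HM (log2 fold change -0.02; edgeR adjusted p = 0.977). Kmt2a, a histone methyltransferase with 45 of its 103 reads from miR-302b-3p, had 4.15, 3.43 and 5.55 in WT and 7.22, 7.86 and 8.58 in HM, without overlap (log2 fold change 0.89; edgeR adjusted p = 0.117). Lifr, the receptor of leukaemia inhibitory factor, had full seed reads with 11 miRNAs of 5 seeds, with a log2 fold change of 0.28. Ddx3x, Tacc2 and Srpr had log2 fold changes of 0.77, 0.89 and 0.47. Per 3p hybrid the values of Kmt2a, Lifr, Ddx3x, Tacc2 and Srpr were below 0.

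Of 18 genes of miRNA production and silencing, 8 had a full seed read, 45 in all, and 2 reached 10 reads. Tnrc6a, a partner of Argonaute in silencing, was lower in HM with 3.11, 0.858 and 1.85 per 1000 in WT and 0, 0.374 and 0.358 in HM (ratio 0.164, exact counting interval 0.0293 to 0.620; edgeR adjusted p = 0.0479), and Tnrc6b did not pass the threshold (log2 fold change -0.13). The call of Tnrc6a rested on 11 reads in WT and 3 in HM, and it was not followed with libraries left out. The row passed the minimum of reads through the WT libraries, so a rise could hardly have been called. Of the 14 reads of Tnrc6a, miR-30a-5p had 3 and miR-26a-5p, miR-292a-5p and miR-374b-5p 2 each. The rest had 1 each, among them miR-19b-3p and miR-23b-3p. Most of its reads were thus of 5p-miRNAs, of which 22 of 23 tested rows were lower in HM. miR-374b-5p, with 3 full seed reads in each genotype, was not among the tested rows. The part of the 5p-miRNAs in the fall of Tnrc6a was not tested. Dicer1 had 8 hybrid reads and none with a full match. The median log2 fold change of the pair was -1.30, against 0.35 over all rows.

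Of 19 growth control genes often named as targets of the miR-17 and miR-302 seeds, 10 had full seed reads and 2 were tested, with none higher or lower. Ccnd1, the cyclin of early G1 phase, had 15 reads led by miR-20b-5p, and Tgfbr2, a receptor of TGF-beta, 10 led by miR-302b-3p, with log2 fold changes of -0.19 and 0.45. The median of the 2 was 0.13.

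The genes that the study had placed behind reporters had few members and were not tested. Vim, the intermediate filament gene, had 6 full seed reads, 4 in HM library 2 and 2 in HM library 3, 3 of them with miR-20b-3p, 2 with miR-17-3p and 1 with miR-302b-3p, and all 6 hybrid reads of the gene held a match. Ptpn21 had 2, both in HM library 2 and with miR-30a-3p. Gid4 had 5, of which 3 were with miR-367-3p and 2 with miR-30a-3p, 1 in WT and 4 in HM. With libraries of this size, 3 reads correspond to 0.0562% to 0.185% of hybrids, so no absence in WT can be read from these counts.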

How the data were processed

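AGO2-CLASH hybrids of 3 WT and 3 HM P19 libraries were analysed. The authors cross-linked cells, digested RNA with RNase 1, captured AGO2 and ligated miRNA to target. The miRNA part was named with QuagmiR, the target part mapped to mouse 3′ UTRs with Bowtie2, and pairs predicted by TargetScan kept. QuagmiR and Bowtie2 versions, the build and the handling of duplicates are not given in the sources used here. The deposited table gives read counts per hybrid sequence and library, with no molecular identifier, so intervals and limits cover counting error only. Libraries held 1621 to 5341 reads, and 3 reads were the limit for a count of 0.

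The miRNA part is the hybrid sequence without its target. The start of miR-324-3p (8 reads) was tied and settled by alphabet. The match nearest the 3′ end was used where a fragment held several. Guide and passenger names follow the study's list. Shares were weighted by reads. Genotypes were compared with two-sided exact permutation tests over libraries, differences within libraries with exact sign-flip tests, and counts of 10 or more reads with edgeR 4.0.16's quasi-likelihood test (R 4.3.3), with DESeq2 1.42.0 as an alternative and Benjamini-Hochberg adjustment over the whole table. Library size was the 3p hybrids for miRNAs and all hybrids for genes. A ratio from 1 to 3 reads has an exact 95% interval. p-values measure the spread between these libraries. The scripts were tested on simulated data. The miRNAs named are the 10 with most full seed reads, the 5 largest changes each way among called rows without overlap, and the 5 highest and 5 lowest shares from 50 reads; the genes follow the first parts of this rule, with Vim, Ptpn21 and Gid4 and members of the gene lists. Of the leading genes, 1 is not reported here. The members, lists and tests were chosen with earlier results of these data known. Of 1655 target names, 1517 matched a RefSeq symbol, 80 a synonym and 58 neither. Alternatives were other counting units, seeds, match lengths, minimums, library sizes and left-out libraries. The tests of site ends, nt 9, fragment length, first base and the 5′ against the 3′ flank, and the omission of Rabggtb and Atp7a or of the 5 leading seeds, were added after seeing the data.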

Additional observations from a re-analysis of the deposited data

Results flagged for a closer look

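The 157 miRNAs with under 5 reads, which the rule left out and no comparison used, held a full seed match by the same rule in 39.2% of their reads (113 of 288). The share was 49.1%, 48.4% and 37.8% in the WT libraries and 29.2%, 35.7% and 21.9% in the HM libraries, from 24 to 70 reads per library. It was singled out because these reads lie outside the measurements above, and the difference between genotypes was not tested.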

How the results depend on the processing

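The 5p share difference changed sign without miR-466i-5p (3.81 points) and as an unweighted mean over miRNAs (0.497). The passenger minus guide difference lost its call with nt 2 to 7 (-5.89), fragments of 20 to 30 nt (-10.2) and the 5 leading seeds left out (-5.69). Without these seeds the length difference was 0.0641 nt, the difference between first bases 6.49 and the 3p adenine difference 5.08, of opposite sign. The 5p adenine difference turned positive with each read's own seed (0.0967), without miR-466i-5p (0.588) and without fragments of several matches (1.51). The flank difference without Rabggtb and Atp7a was 0.997. A minimum of 30 reads left 18 miRNA calls and 7 gene calls. DESeq2 gave 9 gene calls and no minimum 12. Leaving out each library gave 20 to 30 miRNA and 7 to 24 gene calls.

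With 5 libraries the exact sign-flip permutation test cannot go below p = 0.0625, so every within-library call was lost by construction. The values ran from -14.8 to -12.5 (passenger minus guide), 34.3 to 34.9 (adenine), 1.04 to 1.52 (flank), 3.71 to 4.49 (nt 13 to 16), 30.1 to 31.6 (nt 9), 1.24 to 1.60 nt (length), 14.2 to 17.96 (first base) and 3.28 to 3.78 (5′ minus 3′ flank). The 3p share ran from -2.51 to 0.314 and the 5p adenine difference from -5.06 to 1.01.

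Replicate numbers did not pair the libraries, as deviations of same-numbered libraries correlated by -0.120 to 0.00706 for miRNAs and -0.00868 to 0.0184 for genes. With the replicate block 27 miRNA and 15 gene calls were made.

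Among 515 values of 36 named miRNAs and genes, 423 kept direction and call, 57 lost the call, 12 gained it and 23 changed sign. Per all hybrids, TMM, full seed total and DESeq2, miR-367-3p had log2 fold changes of 0.92, 0.33, 1.01 and 0.29. Per all hybrids and full seed total, they were 0.53 and 0.61 for miR-92a-3p, 0.14 and 0.22 for miR-130a-3p, 0.51 and 0.59 for miR-302a-3p, and 0.63 and 0.72 for miR-302d-3p (TMM 0.0339). Atp7a had 0.0648 per full seed total, 0.0508 with each sequence counted once, 0.0402 with each read's own seed and -0.20 to 0.0987 with each library left out. Per 3p hybrid, Kmt2a had -0.16, Lifr -0.77, Ddx3x -0.27, Tacc2 -0.15 and Srpr -0.57.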
